A study of Mus musculus with 6 samples.

Results

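The subunits of the mitochondrial respiratory chain and of ATP synthase that are encoded in the nucleus were followed in 6 RNA-seq libraries of mouse Glu-tag cells. Members were the protein-coding genes outside the mitochondrial chromosome whose names begin with Ndufa, Ndufb, Ndufc, Ndufs or Ndufv and a digit, with Uqcr, with Cox4 to Cox8 or with Atp5, together with Sdha, Sdhb, Sdhc and Sdhd. The rule used names only and found 85 of the 54532 annotated genes, with 84 distinct names because Atp5o stands under 2 identifiers. Complexes were assigned from the same names, and 77 members had enough counts to be tested.

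Complexes I and II pass electrons from NADH and succinate to ubiquinone, complex III passes them on to cytochrome c, and complex IV reduces oxygen. Complexes I, III and IV pump protons across the inner membrane, and ATP synthase, also called complex V, uses the gradient to make ATP. All of these except complex II also contain subunits encoded by the mitochondrial genome, so each is assembled from the products of both genomes.

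Cells labelled as carrying a stable hairpin against Irs2, an adaptor of the insulin and IGF receptors, were compared with cells carrying a control hairpin. The labels give the genotypes as IRS2 Knockdown and WT, the tissue as small intestine and the cell type as Glu-tag in both groups, and no treatment or clone is stated. Each group had 3 libraries, which the titles number 1 to 3. The series text calls them biological triplicates, while every sample description carries the same replicate number, so p-values measure only the spread between these samples, which may be technical.

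Irs2 RNA was not lower where the label says knockdown. It had 31.3, 29.1 and 38.6 CPM (counts per 1000000 counts, scaled by edgeR's TMM factors) in the libraries labelled shIRS2, against 31.0, 23.0 and 34.1 CPM in the shControl libraries. The means were 33.0 ± 4.93 CPM in the libraries labelled shIRS2 and 29.4 ± 5.75 CPM in the shControl libraries (SD, n = 3 each). The log2 fold change was 0.17 (SE 0.16, edgeR adjusted p = 1.00), and the exact two-sided permutation p was 0.5, where 0.1 is the smallest that 3 against 3 allows. The groups are therefore called by their labels, and every direction is that of the libraries labelled shIRS2. Markers of the labelled cell type were mostly missing: 8 of 16 enteroendocrine markers, the proglucagon gene Gcg and the granin gene Chga among them, had 0 counts in all 6 libraries. Of this list 2 reached 1 CPM over all libraries, Pax6 at 23.7 CPM and Nkx2-2 at 3.17 CPM. Of 8 epithelial markers 2 did so, Krt8 at 396 CPM and Krt18 at 4.84 CPM, while Cdx2 had 0 counts and Epcam 1. Of 12 fibroblast markers 7 did so, between 2.62 CPM for Lum and 1943 CPM for Vim, while Thy1 and Postn had 0 counts and Col1a1 had 20. The fibroblast markers summed to 3081, 2976 and 2970 CPM in the libraries labelled shIRS2, against 2456, 2529 and 2861 CPM in the shControl libraries. These sums did not overlap, and 3.24% of all single genes tested were separated in that direction. Most of each sum came from Vim and Col3a1, the latter at 735 CPM over all libraries and overlapping between the groups. Vim did not overlap, with 2078, 2083 and 1963 CPM in the libraries labelled shIRS2, against 1789, 1869 and 1874 CPM in the shControl libraries. Its log2 fold change was 0.15 (SE 0.08). Of the 7 markers tested, 5 had positive and 2 negative log2 fold changes. The part of these markers in the values of the members was not tested. Of 6 immune markers 1 reached 1 CPM, Cd68 at 2.19 CPM. The libraries held 14991019 to 19790073 counts each.

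The members together took 0.955% of all counts, between 0.923% and 0.996% per library. Per unit of length, in the FPKM values that the authors deposited, complex IV had the highest median level at 106 FPKM over its 12 tested members. The medians were 61.5 FPKM for the 8 tested members of complex III, 61.3 FPKM for the 4 of complex II, 41.7 FPKM for the 17 of complex V and 38.4 FPKM for the 36 of complex I. The highest level of any member was that of Atp5b, the catalytic beta subunit of ATP synthase, at 442 FPKM. Cox8a, a small subunit of complex IV, followed at 270 FPKM, and Atp5a1, the alpha subunit of the ATP synthase head, at 244 FPKM. In complex I the accessory subunit Ndufb11 stood at 103 FPKM. At the low end, Ndufb2 of complex I stood at 1.17 FPKM and Cox7a1 at 1.15 FPKM. FPKM depends on the listed gene length, and it was used here to set genes beside each other.

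**Figure D1:**
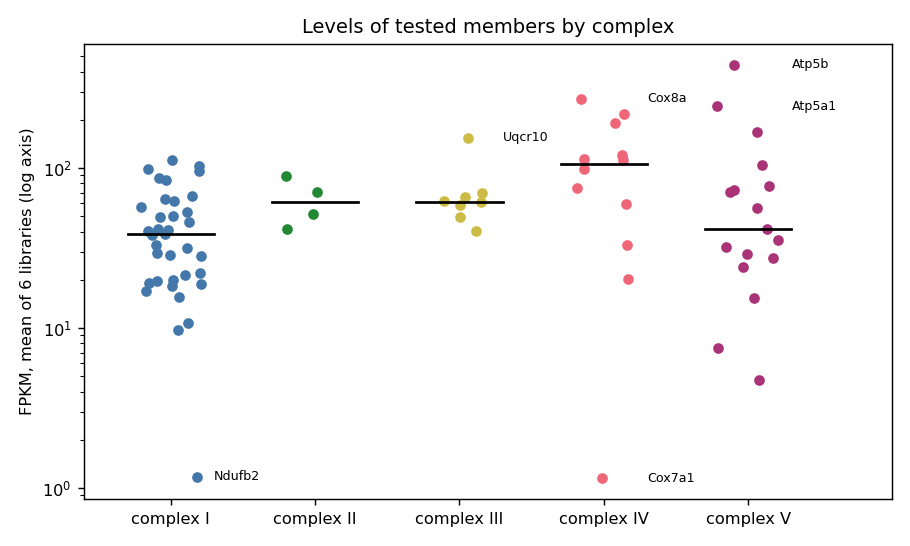
Mean level over the 6 libraries in FPKM, on a log axis, for the 77 tested members by complex; each point is a gene and each bar the median of its complex. Atp5b lies highest at 442 FPKM, and Ndufb2 and Cox7a1 lie lowest, near 1 FPKM.

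No nuclear-encoded subunit passed the test between the libraries labelled shIRS2 and the shControl libraries. The edgeR test called 0 of 77 members, beside 0 of all 13472 genes tested, a background of 0%, at an adjusted p of 0.05. Members at an unadjusted edgeR p under 0.05 numbered 0, where 262 genes or 1.94% of all genes lay under it. DESeq2 called 2 genes and edgeR without a filter on low counts called 6, and 0 of these were members. With the replicate number as a block, edgeR called 1 gene, or 0.00742% of all genes, and again 0 members. In bulk RNA, fewer cells of a type and less RNA per cell cannot be told apart.

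The summed level of the members overlapped between the groups. It was 9369, 9551 and 9915 CPM in the libraries labelled shIRS2 numbered 1, 2 and 3, against 9570, 9326 and 9664 CPM in the shControl libraries. Of the 77 log2 fold changes 34 were positive and 43 negative, with a median of -0.005, and the median over all genes tested was -0.0003. In the pairs with the numbers 1, 2 and 3 the median of the members was -0.03, -0.004 and 0.01. The median half-width of a member's 95% interval was 0.23 on the log2 scale. A change of 2-fold in either direction lay outside that interval for 74 of 77 members, where this held for 87.2% of all genes. A change of 1.5-fold also lay outside it for 74 members, where this held for 68% of all genes. Among the 74 members that averaged 10 CPM or more it did so for 72, and for 92.5% of genes at that level. A log2 fold change of at least 0.25 in size was reached by 3 of these 74 members, or 4.05%, and by 3.53% of genes at that level.

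**Figure D2:**
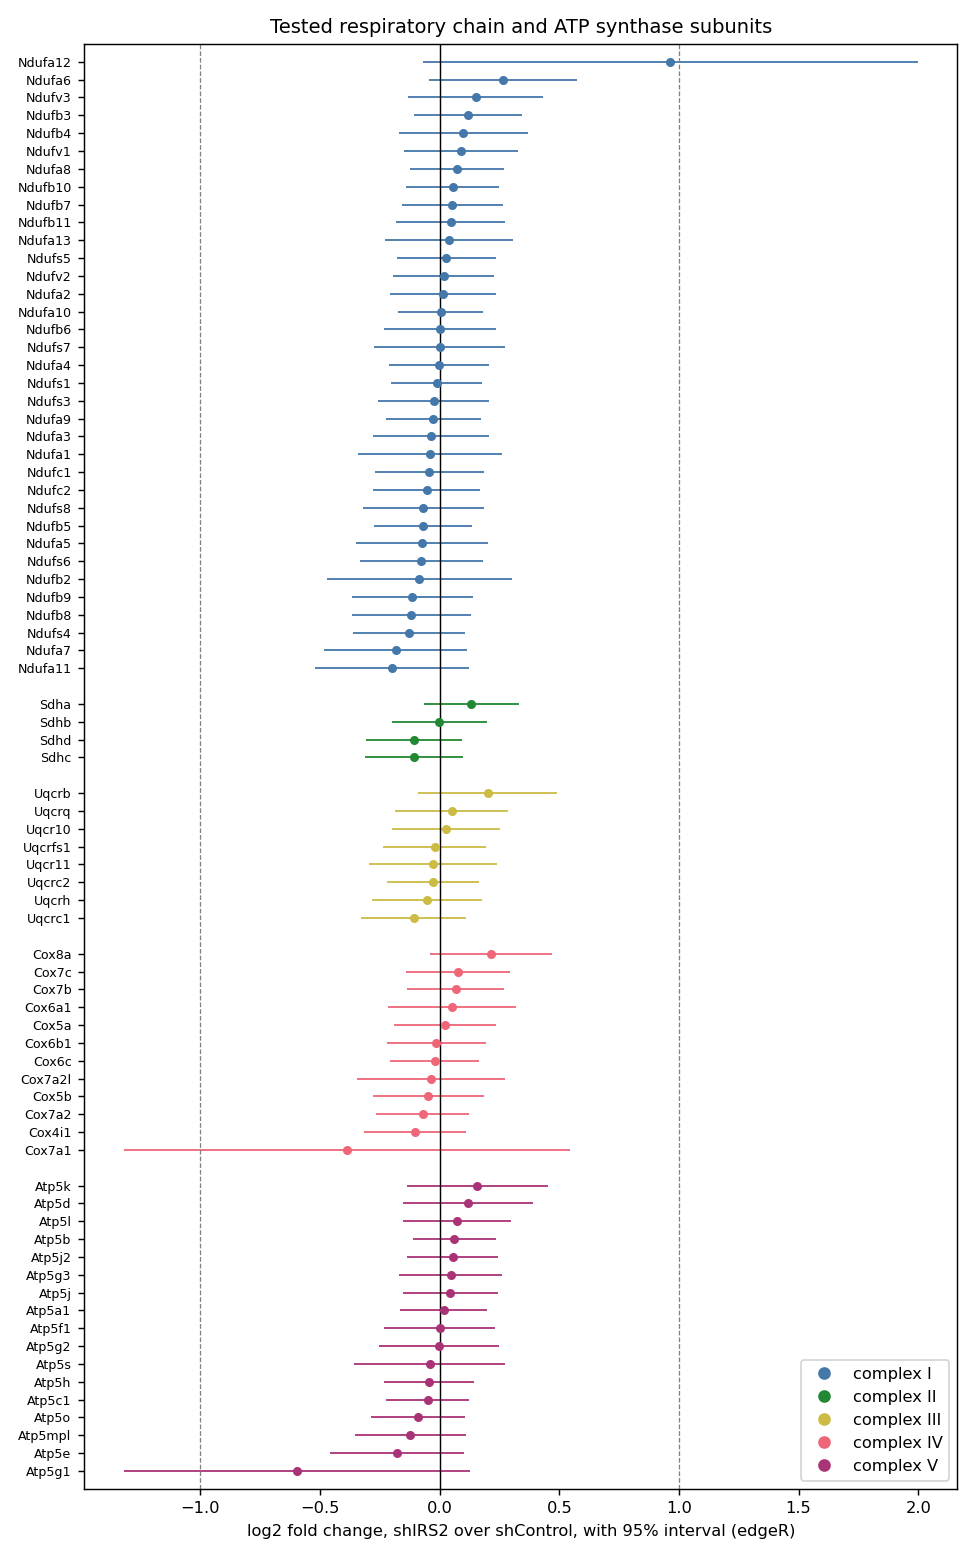
Log2 fold change of the libraries labelled shIRS2 over the shControl libraries, on the horizontal axis, with a 95% interval computed from the edgeR F statistic. Tested members are ordered within each complex, with 1 left out, and dashed lines mark a 2-fold change. All intervals include 0, and only those of Ndufa12, Cox7a1 and Atp5g1 reach past a dashed line.

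Complex I had the largest number of members, and apart from Ndufa12 their log2 fold changes lay between -0.20 and 0.26. Log2 fold changes were positive for 17 and negative for 19 of its 36 tested members, and their median was -0.003. The 7 core subunits that carry the flavin and the iron-sulfur clusters or line the quinone site had a median of -0.001. Ndufa11, an accessory subunit of the membrane arm, had the lowest log2 fold change of the complex at -0.20 (SE 0.14). It stood at 30.3, 33.3 and 37.2 CPM in the libraries labelled shIRS2, against 46.8, 33.9 and 35.1 CPM in the shControl libraries, where the library numbered 1 was the high one. Without that library its log2 fold change was -0.04. Ndufb11 stood at 94.99 ± 7.44 CPM in the libraries labelled shIRS2 and 92.1 ± 7.91 CPM in the shControl libraries (SD, n = 3 each).

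Complex II consists of nuclear products alone, and its 4 genes had log2 fold changes between -0.11 and 0.13. Sdha, the flavoprotein that oxidises succinate, had 312, 310 and 301 CPM in the libraries labelled shIRS2, against 253, 287 and 302 CPM in the shControl libraries. The groups overlapped at the libraries numbered 3, and the log2 fold change was 0.13 (SE 0.09), or 0.06 without the shControl library numbered 1. Sdhb, the iron-sulfur subunit, had 116 ± 6.84 CPM in the libraries labelled shIRS2 and 116 ± 6.58 CPM in the shControl libraries (SD, n = 3 each). The membrane anchors Sdhc and Sdhd had log2 fold changes of -0.11 (SE 0.09) each, with 130 ± 9.70 and 106 ± 1.40 CPM in the libraries labelled shIRS2 and 140 ± 8.56 and 114 ± 9.73 CPM in the shControl libraries (SD, n = 3 each). None of these genes passed the threshold.

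In complex III, log2 fold changes were positive for 3 of 8 tested members, and their median was -0.02. Uqcrb, a small subunit next to the quinone site, had the highest value of the complex at 0.20 (SE 0.13), with 39.6, 49.7 and 49.7 CPM in the libraries labelled shIRS2 and 42.0, 44.1 and 34.9 CPM in the shControl libraries. Uqcrc1, a large core protein, had the lowest at -0.11 (SE 0.10), with 252, 292 and 291 CPM in the libraries labelled shIRS2 and 324, 305 and 271 CPM in the shControl libraries. For both genes the ranges of the groups overlapped. The Rieske iron-sulfur protein Uqcrfs1 and the core protein Uqcrc2 had log2 fold changes of -0.02 and -0.03. The small subunits Uqcr10, the highest of the complex in FPKM, and Uqcr11 had 0.02 and -0.03.

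In complex IV, positive values made up 5 of 12 log2 fold changes, whose median was -0.02. Cox8a had the smallest p of the complex, with 146, 156 and 174 CPM in the libraries labelled shIRS2 and 144, 116 and 149 CPM in the shControl libraries. The library labelled shIRS2 was the higher in each numbered pair, by 0.01, 0.42 and 0.22 on the log2 scale, but the groups overlapped. Its log2 fold change was 0.21 (SE 0.11, edgeR adjusted p = 1.00), and with the block the unadjusted edgeR p was 0.0104 and the adjusted p 0.397. With the block, 3 members lay at an unadjusted edgeR p under 0.05, among them Cox8a and Ndufa6, a complex I subunit with a log2 fold change of 0.26 (SE 0.14). That is 3.90% of the members, where 9.16% of all genes lay under it. Cox4i1, a subunit that binds ATP, stood at 288 ± 21.99 CPM in the libraries labelled shIRS2 and 309 ± 27.0 CPM in the shControl libraries (SD, n = 3 each), and its log2 fold change was -0.10 (SE 0.10).

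Complex V gave positive log2 fold changes for 8 of its 17 tested members, at a median of -0.001. Atp5b stood at 1860.2, 1890 and 2004 CPM in the libraries labelled shIRS2, against 1784, 1809 and 1923 CPM in the shControl libraries, which gave a log2 fold change of 0.06 (SE 0.08). Within each numbered pair the library labelled shIRS2 held slightly more, and in both groups the library numbered 3 was the highest. For Atp5a1 the log2 fold change was 0.02 (SE 0.08), and the other 3 subunits of the head and the central stalk, Atp5c1, Atp5d and Atp5e, had -0.05, 0.12 and -0.18. Atp5k, which encodes the small membrane subunit e, had the highest of the complex at 0.16 (SE 0.13). The peripheral stalk, whose genes are Atp5f1, Atp5h, Atp5j and Atp5o, had a median of -0.02.

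**Figure D3:**
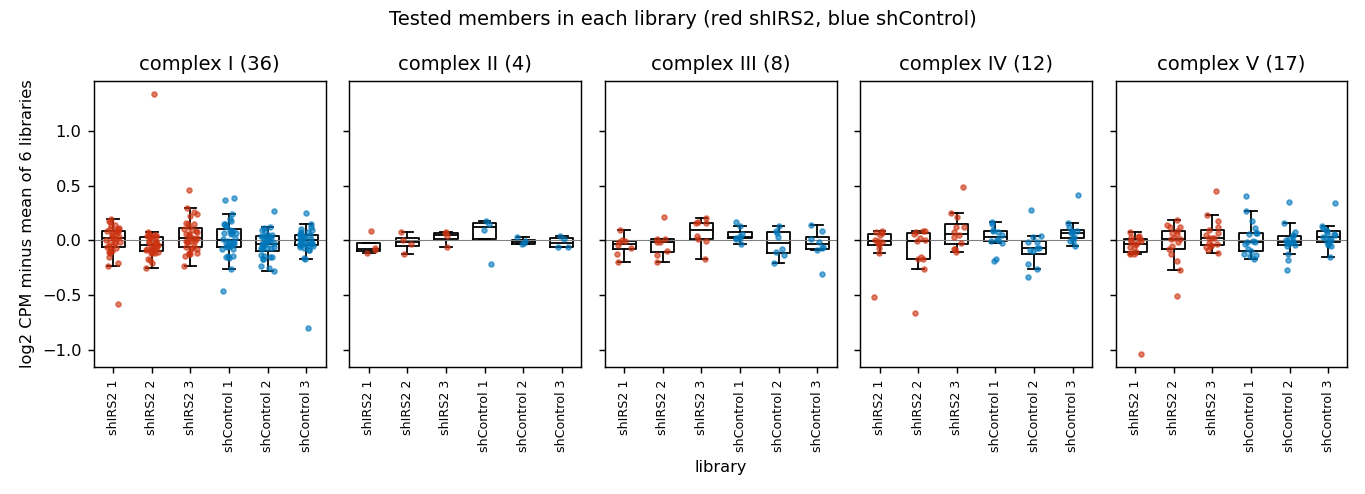
Log2 CPM of each tested member minus its mean over the 6 libraries, on the vertical axis, by library and complex, with the number of members in brackets; boxes give the quartiles and the median, whiskers reach at most 1.5 times the box. Medians stay near 0 in all 6 libraries, and the farthest points are Ndufa12 in the library labelled shIRS2 numbered 2 and Atp5g1 in that numbered 1.

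For Ndufa12 and Atp5g1 the libraries labelled shIRS2 spread widely, unlike for most members. The ratio of the highest to the lowest library had a median of 1.21 over the tested members, and it was under 1.3 for 58 of 77. Of the 74 members that averaged 10 CPM or more it exceeded 1.5 for 3, Ndufa12, Atp5g1 and Ndufa11, where it did so for 16.3% of the 9039 genes at that level. The median coefficient of variation over the 6 libraries was 7.47% for the members and 9.38% for genes of at least 10 CPM.

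Ndufa12 encodes an accessory subunit of the arm of complex I that holds the cofactors, and lies on the plus strand of chromosome 10 from 94198720 to 94221443 (mm10). It had 19.6, 74.2 and 40.4 CPM in the libraries labelled shIRS2 numbered 1, 2 and 3, against 21.4, 30.3 and 16.9 CPM in the shControl libraries. The library labelled shIRS2 numbered 1 lay among the shControl libraries, while the other two lay above all of them. Its log2 fold change came to 0.96 (SE 0.44, 95% interval -0.07 to 2.00, edgeR unadjusted p = 0.064, adjusted p = 1.00), the highest of the 9039 genes that averaged 10 CPM or more. Its SD within groups, 0.74 on the log2 scale, ranked 21 among these genes, whose median was 0.14. Without the library labelled shIRS2 numbered 2 the log2 fold change was 0.39.

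The count of Ndufa12 is uncertain because of a pseudogene. Of the stretches of 50 bases in its annotated transcripts 17.7% also occur in the processed pseudogene Gm15920, and how shared reads were counted is not given in the sources used here. Gm15920 had 35.5, 15.7 and 37.2 CPM in the libraries labelled shIRS2, against 33.4, 43.9 and 37.6 CPM in the shControl libraries, so it was lowest in the library where Ndufa12 was highest. The sum of both was 55.2, 89.9 and 77.6 CPM in the libraries labelled shIRS2, against 54.7, 74.2 and 54.6 CPM in the shControl libraries. Summed, the highest library held 1.65 times the lowest, where the ratio was 4.38 for Ndufa12 alone. Adding a gene of similar level that stayed even over the libraries would also lower such a ratio, so the sum cannot show the part of the pseudogene. In the library labelled shIRS2 numbered 3, where Ndufa12 also lay above all shControl libraries, Gm15920 lay within their range. The part of the pseudogene in the spread of Ndufa12 was not tested. The neighbouring genes Nr2c1 and Tmcc3 had log2 fold changes of 0.05 and -0.03.

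Atp5g1 is a member of a set of 3 genes that encode the same c subunit, the protein of the rotating ring of ATP synthase, behind different targeting sequences. Its position is 96068852 to 96075670 on chromosome 11, minus strand (mm10). It had 34.7, 50.1 and 97.2 CPM in the libraries labelled shIRS2 numbered 1, 2 and 3, against 94.3, 90.5 and 90.0 CPM in the shControl libraries. The libraries labelled shIRS2 numbered 1 and 2 lay below all shControl libraries and that numbered 3 above them, while the shControl libraries lay close together. Its log2 fold change came to -0.60 (SE 0.32, 95% interval -1.32 to 0.13, edgeR unadjusted p = 0.095, adjusted p = 1.00), rank 5 from the lowest among genes of at least 10 CPM. It was -0.32 without the library labelled shIRS2 numbered 1 and -1.11 without that numbered 3. In the numbered pairs the log2 ratio was -1.44, -0.85 and 0.11.

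The other c-subunit genes did not share this spread. Atp5g2 had 114, 116 and 138 CPM in the libraries labelled shIRS2, against 138, 112 and 119 CPM in the shControl libraries. Atp5g3 had 208, 248 and 238 CPM in the libraries labelled shIRS2, against 208, 223 and 242 CPM in the shControl libraries. For both the ranges of the groups overlapped, with log2 fold changes of -0.003 (SE 0.11) and 0.05 (SE 0.10). Atp5g1 made up 9.73%, 12.1% and 20.5% of the summed CPM of the 3 genes in the libraries labelled shIRS2, against 21.4%, 21.3% and 20.0% in the shControl libraries. The sum itself was 356, 414 and 474 CPM in the libraries labelled shIRS2, against 440, 426 and 450 CPM in the shControl libraries. Here too the library labelled shIRS2 numbered 1 was the lowest of the 6.

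The coding sequences show how far reads can tell the c-subunit genes apart, which the comparison of Atp5g1 with its paralogs rests on. The last 78 codons of the 3 genes translate to the same residues. Over these 234 bases Atp5g1 and Atp5g2 were identical at 84.6% of positions, Atp5g1 and Atp5g3 at 78.6%, and Atp5g2 and Atp5g3 at 77.4%. The longest identical runs were 20, 11 and 8 bases, shorter than a read of 150 bases. The 90 bases that open the shared part are given from the GENCODE M21 transcripts (GRCm38, minus strand in each case), with capitals at the 26 positions where the genes differ. They lie at chr11:96073555-96073644 for Atp5g1, chr15:102665086-102665175 for Atp5g2 and chr2:73909216-73909305 for Atp5g3.
Atp5g1: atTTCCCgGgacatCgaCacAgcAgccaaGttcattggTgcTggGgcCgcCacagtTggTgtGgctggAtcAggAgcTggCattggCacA
Atp5g2: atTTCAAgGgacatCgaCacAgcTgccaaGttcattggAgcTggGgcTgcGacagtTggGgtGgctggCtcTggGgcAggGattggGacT
Atp5g3: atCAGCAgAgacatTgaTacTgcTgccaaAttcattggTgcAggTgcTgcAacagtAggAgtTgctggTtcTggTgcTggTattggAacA
Differences recur through the whole stretch, most of them at the last base of a codon. Shared sequence remains a source of uncertainty, since 11.1% of the 50-base stretches of Atp5g1 and 38.4% of those of Atp5g2 also occur in transcripts of other genes. For Atp5g1 these are 366 genes, not all of them pseudogenes, with the protein-coding gene Afap1 among them. The processed pseudogene Gm10039, which shares stretches with Atp5g1, had 11.0, 14.1 and 27.3 CPM in the libraries labelled shIRS2, against 24.7, 27.7 and 30.1 CPM in the shControl libraries. It was thus low in the same 2 libraries as Atp5g1, and the sum of both ranged 2.72-fold over the 6 libraries. Summing genes that fall together keeps such a range, so the sum cannot show the part of the pseudogene. That part in the spread of Atp5g1 was not tested. The neighbouring genes Ube2z and Snx11 had log2 fold changes of -0.02 and -0.09.

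**Figure D4:**
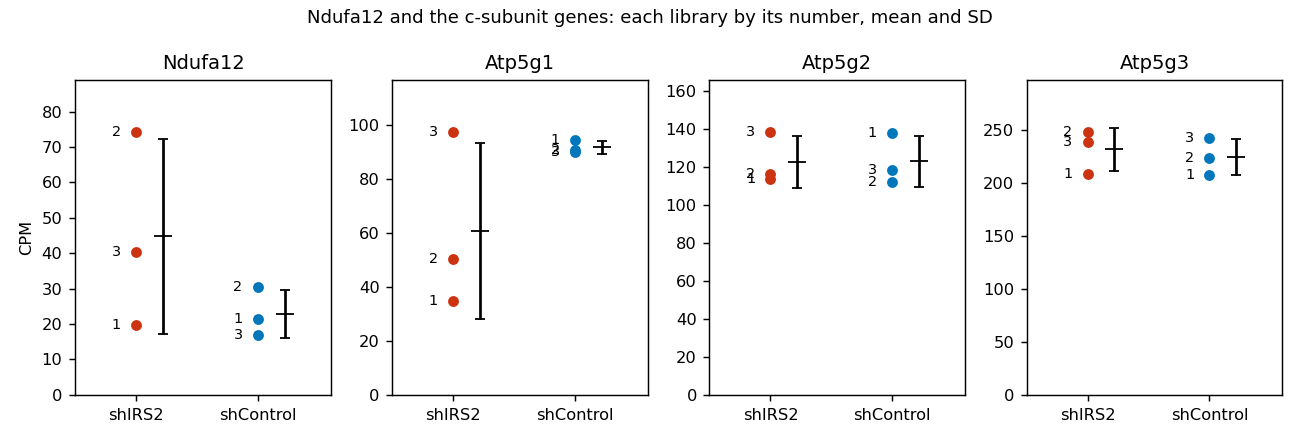
CPM of Ndufa12 and the c-subunit genes in each library, with shIRS2 left of shControl; digits beside points are the replicate numbers, and bars give the mean and SD of 3 libraries. Ndufa12 is highest in the library labelled shIRS2 numbered 2 at 74.2 CPM, Atp5g1 is lowest in that numbered 1 at 34.7 CPM, and Atp5g2 and Atp5g3 overlap between the groups.

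Several complex IV subunits come in isoforms encoded by separate genes, and in these cells the widely expressed form carried nearly all the RNA. Of the forms known from heart and skeletal muscle, Cox6a2 had 26 counts over all 6 libraries and Cox8b had 1. Cox4i2, a form known from lung, had 7 counts. Cox6b2, known from testis, had 3 counts, and Cox7b2 and Cox8c had 0, which allows a level of up to 0.0295 CPM, taken as 3 counts over all libraries. Their widely expressed counterparts Cox6a1, Cox8a, Cox4i1, Cox6b1 and Cox7b stood at 155, 158, 288, 79.5 and 123 CPM in the libraries labelled shIRS2. In the shControl libraries they stood at 150, 137, 309, 80.3 and 117 CPM. Cox7a2, the counterpart of the muscle form Cox7a1, stood at 111 CPM in the libraries labelled shIRS2 and at 117 CPM in the shControl libraries. Ndufa4l2, a hypoxia-induced relative of Ndufa4, had 19 counts. Ndufa4 itself, which is named as a complex I gene but whose protein is found with complex IV, had a log2 fold change of -0.005 (SE 0.09).

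Cox6a2 was low but unevenly spread. It had 7, 3 and 11 counts in the libraries labelled shIRS2 and 1, 2 and 2 counts in the shControl libraries, so the groups did not overlap, and it was too low to be tested with the other genes. Without the filter on low counts its log2 fold change was 2.11, with an edgeR adjusted p of 0.941. The 6 muscle markers summed to 0.471, 1.05 and 0.191 CPM in the libraries labelled shIRS2, against 1.11, 0.970 and 0.449 CPM in the shControl libraries, and their part in the counts of Cox6a2 was not tested. Cox7a1, a muscle form that could be tested at 0.617 CPM, had a log2 fold change of -0.39 (SE 0.42). Among the 77 tested members, 0 had all libraries labelled shIRS2 above all shControl libraries and 0 had all below, where 3.24% and 3.08% of all genes did.

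The replicate numbers separated many genes, and with all 6 libraries few of the members. A test of the number with the group in the fit called 2638 of 13472 genes, or 19.6%, and 3 of 77 members, or 3.90%. Among genes that averaged 10 CPM or more the share called was 25.7%, and 4.05% of the members at that level. The labels do not say what a number marks. In each contrast the libraries with a given number were set against the mean of the others. For number 2 the members had a median log2 contrast of -0.04, with 29 positive and 48 negative, where the median over all genes was -0.004. For number 1 the median of the members was 0.005, and for number 3 it was 0.05, where the medians over all genes were 0.001 and 0.0009. For number 3 the highest medians by complex were 0.09 for IV and 0.07 for V. For number 2 the median by complex was -0.07 for I, -0.01 for II, -0.05 for III, -0.11 for IV and -0.03 for V. Of the 77 members 1, Ndufa12, lay outside the range of -0.60 to 0.52 between the 5th and the 95th percentile of all genes. Its contrast was 1.04, without passing the test (edgeR adjusted p = 0.345).

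The members called between the numbers were Cox7a2l on chromosome 17, Cox6a1 on chromosome 5 and Atp5f1 on chromosome 3. Cox7a2l, which in the mouse helps join complexes III and IV into supercomplexes, had 139, 109 and 142 CPM in the libraries labelled shIRS2, against 145, 109 and 145 CPM in the shControl libraries. The library numbered 2 was the lowest in both groups, at a contrast of -0.39 and an edgeR adjusted p of 0.0027. Cox6a1, the widely expressed form of subunit 6A, had 152, 136 and 176 CPM in the libraries labelled shIRS2, against 153, 131 and 165 CPM in the shControl libraries. Its contrast was -0.27 (edgeR adjusted p = 0.0112). These calls depended on single libraries. Without the library labelled shIRS2 numbered 1, 21 members or 27.3% were called, beside 26.5% of all genes. Without that numbered 2 it was 0 members beside 7.05% of all genes, and without that numbered 3 it was 9 members or 11.7% beside 25%. Without the shControl library numbered 1, 17 members or 22.1% were called, beside 27.4% of all genes. Without that numbered 2 it was 0 members beside 5.83%, and without that numbered 3 it was 7 members or 9.09% beside 22.3%. With all 6 libraries, limma on the FPKM values called 1 member beside 5.96% of all genes, and DESeq2 called 3 beside 12.2%. Without either library numbered 1 the share of members called thus lay near that of all genes. Leaving out a library leaves its number with 1 library, which is then assumed to vary like the rest.

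Atp5f1, the b subunit of the peripheral stalk, was the member that was higher in the libraries numbered 2. It had 309, 350 and 293 CPM in the libraries labelled shIRS2, against 314, 354 and 286 CPM in the shControl libraries, a contrast of 0.23 (edgeR adjusted p = 0.0233). Its annotated neighbour Wdr77, a component of the methylosome, lies on the opposite strand and overlaps it, and how reads in the overlap were counted is not given in the sources used here. Wdr77 had 70.2, 121 and 69.6 CPM in the libraries labelled shIRS2, against 77.9, 122 and 72.5 CPM in the shControl libraries, a contrast of 0.74. Both genes were thus highest in the libraries numbered 2, and the part of Wdr77 reads in the counts of Atp5f1 was not tested. The number test called 25.7% of genes of at least 10 CPM. Nearest neighbours were looked up for Ndufa12, Atp5g1 and Atp5f1 only.

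Atp5f1 and Wdr77 are read in opposite directions from RefSeq starts 235 bases apart, and the region between them holds the palindrome CTCGCGAG, the centre of the known site of the factor BANP, at 2 places. It was searched after that region had been looked at, first in a form of 10 letters. That form occurs in 0.525% of all promoters and in 115 of 9553 tested genes, Atp5f1 and Ndufa7 among them. The palindrome occurs in 1.04% of the 27025 RefSeq promoters of 300 bases, 250 before to 50 after the start. Among the 9553 tested genes the share was higher, at 2.29%. Of the 65 members with windows 3 held it, Ndufa7, Ndufa11 and Atp5f1. For number 2 the contrasts of Ndufa7 and Ndufa11 were -0.10 and -0.15, opposite in sign to that of Atp5f1. The 2 matches at Atp5f1 are given 5′ to 3′ on its strand (GRCm38.p6, minus strand, chr3:105959442-105959469 and chr3:105959268-105959295), with the palindrome in capitals. They are shown because Atp5f1 and Wdr77 were both highest in the libraries numbered 2.
Atp5f1 far site: cgctctacttCTCGCGAGaattgtgtct
Atp5f1 near site: ctgatctcttCTCGCGAGatgtgcgagc
They begin 196 and 22 bases before the RefSeq start of Atp5f1, and both lie within that gene as annotated for the counts. A match is a description of the letters, and no binding was measured.

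**Figure D5:**
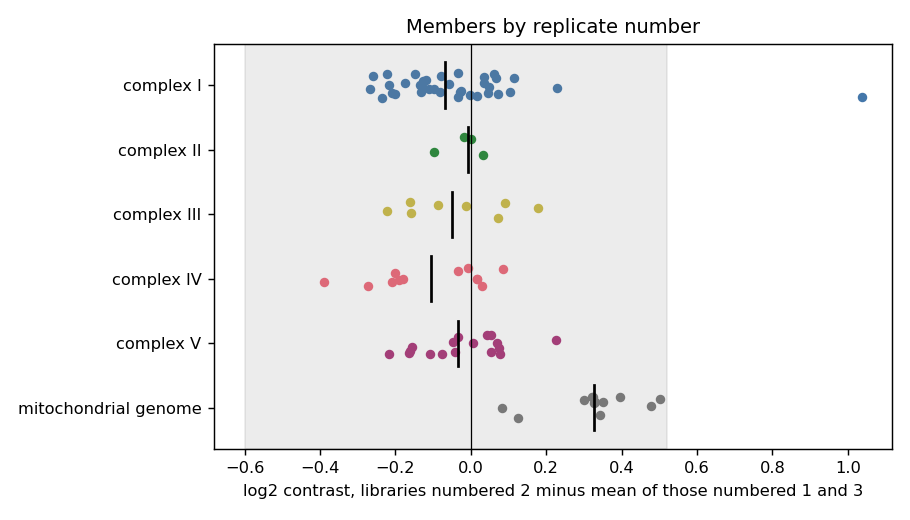
Log2 contrast of the libraries numbered 2 minus the mean of those numbered 1 and 3, on the horizontal axis, for tested members by complex and for 12 protein genes of the mitochondrial genome; black bars are medians and the grey band runs from the 5th to the 95th percentile of all genes tested. The complexes have medians between -0.11 and -0.01, the mitochondrial genome 0.33.

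The partner subunits encoded by the mitochondrial genome were set beside the nuclear members. Of their 12 tested protein genes 6 were called between the numbers, beside 19.6% of all genes and 25.7% of those of at least 10 CPM. All 6 were higher in the libraries numbered 2, and the median contrast of the 12 was 0.33. Their summed level was 15755, 17085 and 14027 CPM in the libraries labelled shIRS2, against 11992, 16146 and 13598 CPM in the shControl libraries. Divided by the summed level of the nuclear members, this gave ratios of 1.68, 1.79 and 1.415 in the libraries labelled shIRS2, against 1.25, 1.73 and 1.407 in the shControl libraries. The shControl library numbered 1 had the lowest ratio, and the ranges of the groups overlapped. In each of the 3 numbered pairs both the sum and the ratio were higher in the library labelled shIRS2. Between the hairpin groups the log2 fold change was positive for 11 of the 12, at a median of 0.18, and edgeR called 0. With the block edgeR also called 0, while 7 of the 12 lay at an unadjusted edgeR p under 0.05, beside 9.16% of all genes. In the pairs numbered 1, 2 and 3 their median log2 ratio was 0.40, 0.09 and 0.09. All 12 contrasts of number 2 were positive, so these genes moved together, and their counts cannot be read as 12 separate observations. The difference between the nuclear and the mitochondrial members was not tested.

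Genes around the respiratory chain were counted in lists of their own, chosen with earlier results of these data known. Between the hairpin groups edgeR called 0 of 51 assembly factors, with a median log2 fold change of 0.04. It also called 0 of 18 genes of the tricarboxylic acid cycle, 0 of 13 of coenzyme Q synthesis and 0 of 15 regulators of mitochondrial biogenesis, with medians of 0.02, 0.02 and -0.01. Among chain genes outside the name rule, which include cytochrome c (Cycs) and cytochrome c1 (Cyc1), 0 of 7 were called, with a median of -0.01. The smallest unadjusted edgeR p-values in these lists belonged to Idh3g, a subunit of isocitrate dehydrogenase, whose log2 fold change was 0.18 (SE 0.09), and to Atpif1, the inhibitor of ATP synthase, at 0.20 (SE 0.10). Between the replicate numbers 6 of the 51 assembly factors passed, all higher in the libraries numbered 2. These 6 are Ndufaf4, Acad9, Uqcc1, Sco1, Cox10 and Coa7, and their contrasts ran from 0.33 for Acad9 to 0.62 for Ndufaf4. That is 11.8% of the list, beside 19.6% of all genes. In the tricarboxylic acid cycle 4 of 18 passed, or 22.2%, among them Dlst and Idh3a, which were higher in the libraries numbered 2, and Pcx, which was lower. In coenzyme Q synthesis 3 of 13 passed, or 23.1%, with Pdss1 higher, Coq10a lower and Coq2 at a contrast of -0.08. Among the regulators 2 of 15 passed, or 13.3%, Pprc1 and Tfb2m, both higher. Among the chain genes outside the name rule 2 of 7 passed, or 28.6%. Cycs was higher in the libraries numbered 2, at 0.33 (edgeR adjusted p = 0.011), and Higd2a was lower, at -0.27 (edgeR adjusted p = 0.0196).

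The promoters of the members were searched for the letters of 3 factors known from respiratory chain genes, on both strands of the RefSeq windows of 300 bases (GRCm38.p6), and overlaps between motifs were allowed. Windows were found for 65 of the 77 tested members. The NRF1 motif, searched by its central letters CGCANGCG, was in 25 of them, or 38.5%, where 20.0% of 9553 tested genes and 9.22% of all 27025 genes held it. The YY1 motif AAGATGGC was in 10 members, or 15.4%, where 5.63% of tested genes and 3.19% of all genes held it. The ETS motif CCGGAAG, the core bound by the NRF2 factor Gabpa, was in 16 members, or 24.6%, where 20.8% of tested genes and 9.93% of all genes held it. These shares describe the letters of the windows and carry no test. NRF1 letters were found in 10 of 32 windows of complex I, 2 of 3 of complex II, 3 of 5 of complex III, 1 of 10 of complex IV and 9 of 15 of complex V. Ndufa12, Atp5g2 and Atp5g3 held them, and the window of Atp5g1 did not. A form of 10 letters, with 1 more base on each side, was searched first, and the shorter letters were taken after its shares had been seen. The longer form was in 17 of the 65 members, or 26.2%, where 11.9% of tested genes and 5.19% of all genes held it, and Ndufa12 was not among them. For each of 8 members chosen among those named here, 1 match to the shorter letters is shown, 5′ to 3′ on the strand of the gene, with the motif in capitals.
Ndufa11: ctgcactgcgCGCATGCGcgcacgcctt
Ndufa12: tccagctctgCGCCTGCGtagaacgacc
Sdha: cgactcggtgCGCAAGCGcagtctgtcg
Sdhd: cgctggggtgCGCACGCGcggtggcagc
Uqcrc1: ttccttacagCGCTTGCGcctcagactc
Cox6a1: ggataaagtgCGCAGGCGctggagttcc
Atp5g2: gctccggccgCGCATGCGcagagccttc
Atp5g3: agccgcaccgCGCTTGCGcgcccagccc
On the plus strand, that of Ndufa11 lies at chr17:56717693-56717720, that of Ndufa12 at chr10:94198906-94198933 and that of Uqcrc1 at chr9:108936644-108936671. On the minus strand, that of Sdha lies at chr13:74350232-74350259, that of Sdhd at chr9:50603910-50603937 and that of Cox6a1 at chr5:115349057-115349084. Those of Atp5g2 and Atp5g3 lie at chr15:102671071-102671098 and chr2:73911296-73911323, also on the minus strand. In Ndufa12, Uqcrc1 and Atp5g3 the motif reads on the opposite strand, and in Uqcrc1 and Atp5g3 it begins after the RefSeq start of the window. The matches of Ndufa12, Sdha and Atp5g2 begin before that start but lie within the gene as annotated for the counts.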

How the data were processed

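Poly(A)-selected or ribosome-depleted RNA, as the labels' protocols put it, was made into strand-specific libraries and read as paired ends of 150 bases. The authors deposited raw read counts per gene and, for these 6 libraries, FPKM values. Per the submitters' processing notes the build was mm10. The aligner, the counter, its strand setting and its treatment of shared reads were not given in the sources used here. Members with pseudogenes, paralogs or overlapping genes therefore have uncertain counts: 34 tested members overlap another annotated gene, and 19 share over 10% of their 50-base stretches with other genes' transcripts. The columns were matched to samples by their names alone (NC to sh-control and S to sh-IRS2, with the title's number).

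Counts were fitted in R 4.3.3 with edgeR 4.0.16: filterByExpr by group, TMM scaling and the robust quasi-likelihood test, with the group as the only term, shIRS2 over shControl. The number test added the replicate number (2 degrees of freedom). P-values are two-sided and adjusted by Benjamini-Hochberg over all 13472 genes tested, with a threshold of 0.05. CPM are counts per 1000000 of the TMM-scaled total. Floors of 3 counts allow for counting error only, since reads had no molecular identifiers to mark single molecules. The scripts were tested on simulated data.

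Alternatives were DESeq2 1.42.0, limma 3.58.1 on log2(FPKM + 1), other scalings, no filter, the replicate block and left-out libraries. Deviations from the group means correlated at 0.326, 0.831 and 0.488 within the pairs numbered 1, 2 and 3, so by the rule of over 0.1 in every pair the numbers were taken to pair the libraries. Across numbers 1 and 3 the correlations were 0.336 and 0.367, so these data set number 2 apart and do not tell numbers 1 and 3 apart. No label states what they share. Named members were, per complex, the 2 highest in FPKM, the extremes of fold change, the smallest p and the largest contrast of number 2, plus complex II, isoform genes and members called in a fit. Core subunits, Ndufa6, other list and marker genes, the small groups of complexes III and V, and pseudogene and neighbouring genes were named after their values were seen. The members and lists were chosen with earlier results of these data known. GENCODE M21 and RefSeq gave the sequences. The values of 1 member and of 1 gene of the other lists, which stay in all counts and medians, are not reported here.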

Additional observations from a re-analysis of the deposited data

How the results depend on the processing

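The 13 alternatives to the hairpin comparison left 0 members called, and the median log2 fold change of the members stayed between -0.02 and 0.004. Over all genes DESeq2 called 2, edgeR without a filter on low counts 6 and edgeR with the replicate block 1. Of 364 alternative values for 28 named members, 36 in 12 members changed sign. The largest of these members' log2 fold changes was 0.05 in size, and 0 values had an adjusted p under 0.05. With the replicate block, which pairs libraries by number, the log2 fold change was 0.86 for Ndufa12 and -0.71 for Atp5g1, and the block changed no member's call. Between the numbers, DESeq2 called 1641 genes and limma on FPKM 803, and leaving out each library gave 798 to 3774 genes and 0 to 21 members. Members called were 5 with library totals, 1 with limma and 6 without the filter, beside 20%, 5.96% and 12.4% of all genes. With library totals the median contrast of number 2 was -0.066, where it was -0.04 with TMM scaling. The causes of these shifts were not tested. With 3 libraries a group, the median half-width of a member's 95% interval, 0.23 on the log2 scale, limits the size of change that could be seen.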
